A study of Mus musculus with 9 samples.

Results

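The receptors described here are 9 trafficking receptors of effector CD8+ T cells: the chemokine receptors Cx3cr1, Cxcr3, Cxcr6, Ccr2, Cxcr4 and Ccr7 and the sphingosine-1-phosphate (S1P) receptors S1pr1, S1pr4 and S1pr5. They were taken by gene symbol, and all 9 were found, each under 1 identifier, among the 55471 gene identifiers of the count files. RNA was sequenced from mouse CD8+ T cells with the transgenic OT-I receptor, which recognises a peptide of ovalbumin. The control group (Bdh1-WT;shCtrl, n = 4) had an intact Bdh1 gene and carried a hairpin RNA (shRNA) directed at firefly luciferase, which is not a mouse gene. The DKO group (Bdh1-KO;shOxct1, n = 5) lacked Bdh1 by knockout and carried an shRNA against Oxct1, so that Oxct1 was lowered by knockdown and not deleted. Bdh1 and Oxct1 encode enzymes of ketone body use. Cells of both groups were stimulated for 24 h through CD3 and CD28, transduced, cultured for 2 more days in interleukin-2 (50 U/mL throughout) and sorted for the Ametrine reporter of the shRNA. They were then given to C57BL/6 mice marked by CD45.1, which kept their own immune cells and were infected 1 day later with LmOVA, a Listeria monocytogenes that expresses ovalbumin. On day 7 of infection the CD45.2, Ametrine+ cells were sorted from the spleen. The ages of the animals, the kind of Bdh1 allele, and whether the replicates of a group came from separate donors or recipients are not stated in the labels, so the p-values measure only the spread between these libraries.

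Chemokine receptors and S1P receptors are G protein-coupled receptors that steer T cells along gradients of their ligands. Naive and central memory T cells use CCR7 to enter lymph nodes, whereas effector cells formed in an infection lose it and gain receptors for ligands made in inflamed tissue, such as CXCR3, CXCR6, CCR2 and CX3CR1. S1P is abundant in blood and lymph and scarce inside tissue, and S1PR1 lets T cells leave a lymphoid organ along that gradient. CX3CR1 and S1PR5 are known as marks of circulating, terminally differentiated effector cells, and the transcription factors T-bet (Tbx21), Zeb2 and KLF2 are among the known regulators of such receptors.

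All 9 are protein-coding genes of the mouse genome build mm10 (GRCm38). Of the chemokine receptors, Cx3cr1 (ENSMUSG00000052336.7) spans chr9:119901616-120069879 on the minus strand, Cxcr6 chr9:123806475-123811760 and Ccr2 chr9:124101950-124113557 on the plus strand, Cxcr3 chrX:101731535-101734269, Cxcr4 (ENSMUSG00000045382.6) chr1:128588199-128592293 and Ccr7 chr11:99144196-99155077 on the minus strand. The S1P receptors are on the minus strand at chr3:115710433-115715072 (S1pr1), chr10:81497747-81500132 (S1pr4) and chr9:21242912-21248443 (S1pr5).

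The libraries held 45205993 to 59853080 counts in genes. Oxct1 and Bdh1 were lower in all 5 DKO libraries than in any control library, with log2 fold changes (DKO against control) of -3.61 and -1.52. Control replicate 1 stood apart from the other 8 libraries. Of its reads 16.7% were unmapped, against 10.3 to 12.3% elsewhere, and its genes deviated from their means over the 9 libraries according to length, with a median log2 deviation of 0.37 for genes under 2 kb of exon and -0.37 for genes over 8 kb (at most 0.12 in size in the other libraries). Over the 2447 genes with a mean of at least 100 CPM (counts scaled to a common library size), the median coefficient of variation was 13.5% in control, 6.17% in control without replicate 1, and 5.72% in DKO. Results that rest on this library are therefore given with and without it.

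Cxcr6 and S1pr1 were the most abundant of the 9 receptors, and Cxcr4 and Ccr7 were low, in both groups. The largest difference was that of Cxcr4, which had a 1.68-fold higher level in DKO (95% interval 1.23 to 2.29), and Cx3cr1 had 0.766 of the control level (95% interval 0.629 to 0.933). The S1P receptors and Cxcr3, Cxcr6 and Ccr2 had fold changes between 0.904 and 1.1. None of the 9 receptors passed the threshold after adjustment. Each was tested with edgeR's quasi-likelihood test, fitted to all 14918 genes that passed the low-count filter, with Benjamini-Hochberg adjustment over those genes and a threshold of 0.05. All 9 receptors were among the genes tested. In that fit 422 genes passed, which is 2.83% of the genes tested (1.32% higher in DKO and 1.51% lower). At an unadjusted p under 0.05 stood 2 of the 9 receptors, Cxcr4 (higher in DKO) and Cx3cr1 (lower in DKO), against 16% of all genes. Only Cxcr4 had CPM that did not overlap between the groups, 1 of 9 receptors against 8.71% of all genes tested (4.62% higher in DKO). Log2 fold changes were above 0 for 6 of the 9 receptors and for 7246 of all 14918 genes. Their median was 0.05 over the 9 receptors and -0.01 over all genes. The count of 0 was not the same under every analysis: the DESeq2 Wald test called 1 receptor (6.96% of all genes), limma-voom with quality weights called 2 (6.68%), a fit with 1 surrogate variable called 2 (7.7%), and edgeR without control replicate 1 called 1 (4.93%). With the length trend of each library removed, edgeR called none (3.83% of all genes), and with that library left out as well it called 1 (5.41%).

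**Figure D1:**
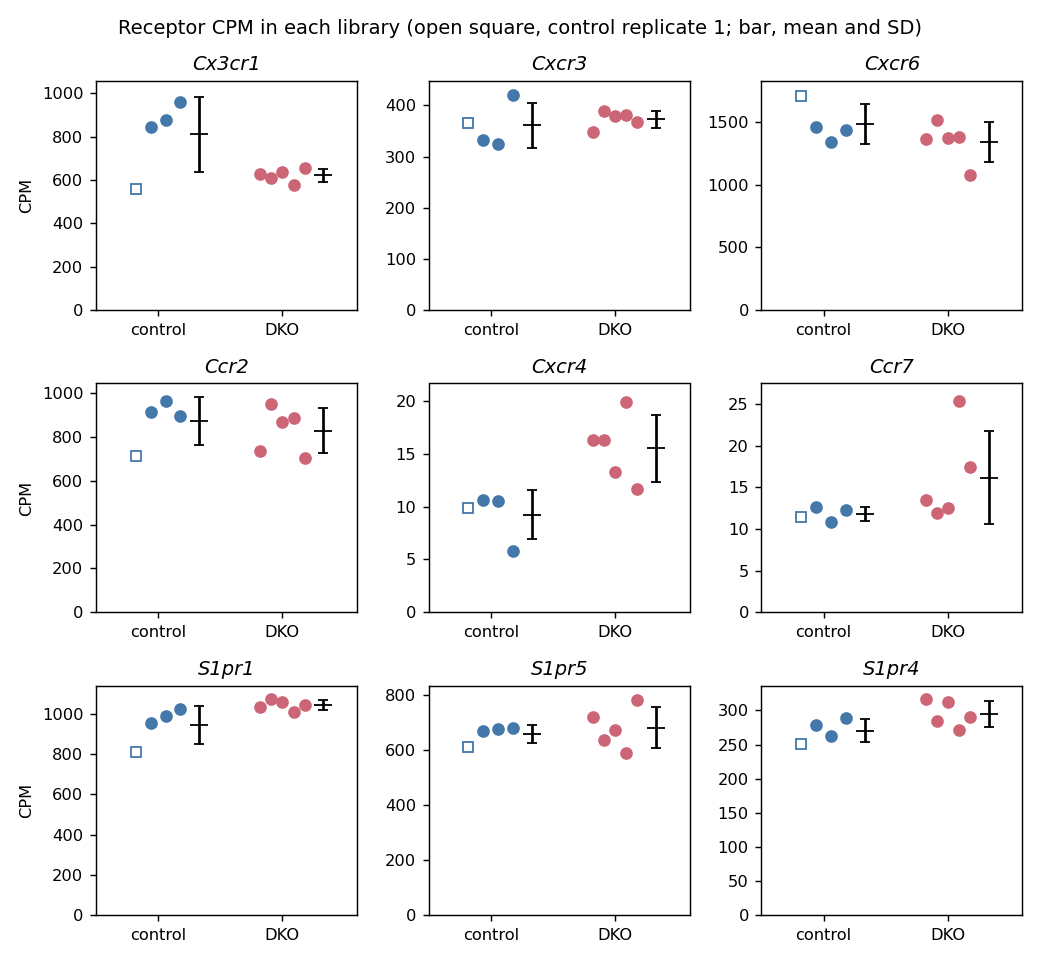
CPM of each receptor (vertical axes, each from 0) in the 4 control libraries and the 5 DKO libraries, with the mean and SD of each group as a bar. Control replicate 1, drawn as an open square, is the lowest control library for Cx3cr1, Ccr2 and all 3 S1P receptors, and the Cxcr4 values of the groups do not overlap.

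Cx3cr1 encodes the receptor of fractalkine (CX3CL1). Its CPM was 559.7, 844, 878 and 961 in control replicates 1 to 4, and 627, 609, 635, 579 and 654 in DKO replicates 1 to 5. All 5 DKO libraries lay below 3 of the 4 control libraries and above control replicate 1, so that the groups overlapped through that library alone. The means were 811 ± 174 CPM (SD, n = 4) against 621 ± 28.6 CPM (SD, n = 5). The log2 fold change, DKO against control, was -0.38 (SE 0.13, 95% interval -0.67 to -0.10), and edgeR's adjusted p was 0.163. Without control replicate 1 the control mean was 894 ± 59.9 CPM (SD, n = 3), the groups did not overlap (14.5% of all genes did not overlap with that library left out), and the log2 fold change was -0.54 (SE 0.06) with an adjusted p of 0.000668. Limma-voom, which gives each library a weight, put it at -0.47 with an adjusted p of 0.00227, and the fit with 1 surrogate variable at -0.47 with 0.00128. DESeq2 gave -0.39 with an adjusted p of 0.084. Leaving out control replicate 4, the highest library, gave -0.29 (edgeR adjusted p 0.331). The estimate was negative under all 19 alternatives that were run.

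The low value of Cx3cr1 in control replicate 1 was larger than the length trend of that library. Cx3cr1 has 4505 bases of exon, and genes of that length were lower in control replicate 1 than in the other controls by 0.13 on the log2 scale, whereas Cx3cr1 itself was lower by 0.67. Removing the length trend of every library moved the log2 fold change to -0.41 (edgeR adjusted p 0.0566). With the trend removed and that library left out, the log2 fold change was -0.53 and the adjusted p was 0.000297.

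**Figure D2:**
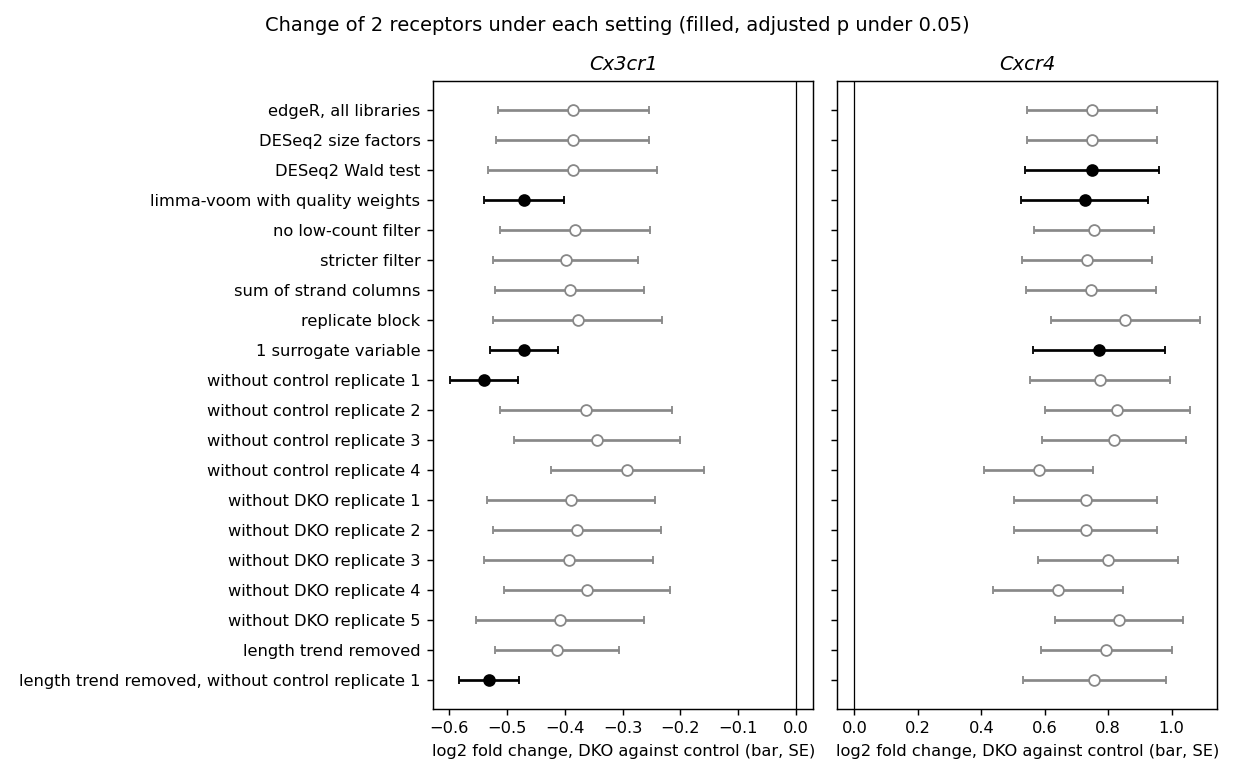
Log2 fold change of Cx3cr1 and Cxcr4 (horizontal axes, DKO against control, bars SE) in the fit of all 9 libraries and under each of 19 alternatives (vertical axis), with filled points where the adjusted p is under 0.05. Cx3cr1 stays between -0.54 and -0.29 and Cxcr4 between 0.58 and 0.85, and the settings with filled points differ between the receptors.

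Cxcr4 encodes the receptor of CXCL12, which holds cells in the bone marrow and guides them within lymphoid organs. It was a low transcript, with 329 to 1020 counts per library. Its CPM was 9.91, 10.7, 10.5 and 5.79 in control replicates 1 to 4, and 16.3, 16.3, 13.2, 19.9 and 11.7 in DKO replicates 1 to 5. Every DKO library was above every control library, and the nearest were control replicate 2 and DKO replicate 5. The means were 9.21 ± 2.31 CPM (SD, n = 4) and 15.5 ± 3.17 CPM (SD, n = 5), and the log2 fold change was 0.75 (SE 0.20, 95% interval 0.30 to 1.20), with p values from edgeR of 0.00345 unadjusted and 0.0843 adjusted. DESeq2 gave an adjusted p of 0.00844, limma-voom 0.0478 and the fit with 1 surrogate variable 0.0466. Control replicate 1 lay among the other controls for this gene, and without it the log2 fold change was 0.77 (edgeR adjusted p 0.0707). Without control replicate 4, the lowest library, it was 0.58 (adjusted p 0.145).

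Cxcr4 and Cx3cr1 were the receptors with the lowest p values and had differences of opposite sign. Within each library, the log2 ratio of Cxcr4 to Cx3cr1 CPM was -5.82, -6.31, -6.38 and -7.38 in control and -5.27, -5.22, -5.58, -4.86 and -5.81 in DKO. The means differed by 1.12, and the groups did not overlap, although control replicate 1 (-5.82) and DKO replicate 5 (-5.81) were close to each other. Without control replicate 1 the difference was 1.34. This ratio was formed after the values were seen and was not tested.

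The promoters of these 2 genes are shown because they had the smallest p values of the 9 receptors and differences of opposite sign. Each run is RefSeq's, for build GRCm38.p6, from 250 bases before to 50 bases after the annotated start, read on the gene's own strand: chr9:120068247-120068546 (minus strand) for Cx3cr1 and chr1:128592250-128592549 (minus strand) for Cxcr4. Capitals mark the core of KLF sites, CACCC, or its reverse complement GGGTG.
Cx3cr1: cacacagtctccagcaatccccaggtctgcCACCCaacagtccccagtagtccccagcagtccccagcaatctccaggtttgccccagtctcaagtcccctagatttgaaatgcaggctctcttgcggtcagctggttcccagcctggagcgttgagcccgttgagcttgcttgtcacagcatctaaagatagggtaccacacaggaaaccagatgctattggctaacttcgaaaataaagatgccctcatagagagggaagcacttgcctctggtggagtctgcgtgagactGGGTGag
Cxcr4: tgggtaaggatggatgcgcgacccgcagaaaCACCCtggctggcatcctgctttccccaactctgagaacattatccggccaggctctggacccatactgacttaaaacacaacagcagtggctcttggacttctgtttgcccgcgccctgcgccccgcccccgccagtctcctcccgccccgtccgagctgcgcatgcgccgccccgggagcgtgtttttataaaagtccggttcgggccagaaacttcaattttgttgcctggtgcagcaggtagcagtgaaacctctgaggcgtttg
RefSeq's start is not the end of the gene span given above, and for Cx3cr1 the window lies inside that span. With RefSeq's start counted as 1 and the base before it as -1, the first bases of the matches in Cx3cr1 lie at -220 on the plus strand of the run and at 44 on its other strand, and that in Cxcr4 at -219.

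RefSeq promoters were found for 7 of the 9 receptors, without Ccr7 and S1pr1. Both strands were searched for CACCC (KLF core), GGTGTG (T-box core) and CAGGTG (ZEB E-box). These can overlap: GGGTGTG holds the second and the reverse complement of the first, and the second and the third share GGTG. S1pr5 held the KLF core at -216 and -128, S1pr4 held it at -107 and the ZEB E-box at -121, Cxcr3 held the ZEB E-box at -116, and Cxcr6 and Ccr2 held no match. The KLF core was thus in 4 of the 7 promoters, against 57.5% of 32851 mouse promoters of this length. The ZEB E-box was in 2 of 7 against 20.2%, and the T-box core in 0 of 7 against 19%. A match describes letters in this window and not a site that is used.

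The receptors for ligands of inflamed tissue other than Cx3cr1 had differences smaller than their spread. Cxcr3 encodes the receptor of the interferon-induced chemokines CXCL9 and CXCL10. It was at 366, 332, 325 and 421 CPM in control against 348, 389, 379, 381 and 367 CPM in DKO, so that all DKO libraries lay within the control range. Its log2 fold change was 0.05 (95% interval -0.14 to 0.24, edgeR adjusted p 0.836). Cxcr3 lies on the X chromosome, and the X-linked noncoding RNA Xist was at 0 to 0.351 CPM in control against 11.4 to 23.6 CPM in DKO (named after its values were seen). The Y-linked genes Ddx3y, Eif2s3y, Kdm5d and Uty together had 1 count in control and 2 counts in DKO. The sex of the donors is not stated in the labels, and whatever goes with the difference in Xist cannot be told apart from the groups in any comparison given here, that of Cxcr3 included.

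Cxcr6 encodes the receptor of CXCL16 and was the most abundant of the 9, with 50752 to 89494 counts per library. Its CPM was 1708, 1459, 1338 and 1433 in control and 1365, 1516, 1369.5, 1383 and 1074 in DKO. Control replicate 1 was the highest library and DKO replicate 5 the lowest, and the groups overlapped. The log2 fold change was -0.15 (95% interval -0.37 to 0.08, edgeR adjusted p 0.541), and it was -0.08 without control replicate 1. Cxcr6 lies inside Fyco1, which is read from the other strand. The sum of its strand counts was 1.00 times its unstranded count, so few of its reads were set aside as ambiguous.

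Ccr2 encodes the receptor of CCL2 and related chemokines. It was at 713, 911, 961 and 894 CPM in control against 737, 948, 865, 884 and 703 CPM in DKO. A low library occurred in both groups, control replicate 1 and DKO replicates 1 and 5, and the log2 fold change was -0.07 (95% interval -0.32 to 0.17, edgeR adjusted p 0.800), or -0.17 without control replicate 1 (adjusted p 0.338). Ccr2 is long (6760 bases of exon). In control replicate 1 it was lower than in the other controls by 0.37 on the log2 scale, where the length trend gave 0.31.

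Ccr7 encodes the receptor of CCL19 and CCL21. It was as low as Cxcr4, with 489 to 1305 counts per library. Its CPM was 11.4, 12.7, 10.8 and 12.3 in control and 13.5, 12, 12.5, 25.4 and 17.4 in DKO. DKO replicates 4 and 5 were above all other libraries, and the other 3 DKO libraries were at 12 to 13.5 CPM, next to the controls. The coefficient of variation was 7.07% in control and 34.6% in DKO. The fold change was 1.37 (95% interval 0.997 to 1.88, log2 fold change 0.45, SE 0.21, edgeR adjusted p 0.319). Without DKO replicate 4 the log2 fold change was 0.23 (edgeR adjusted p 0.49). Its adjusted p was between 0.21 and 0.511 under the 18 alternatives other than the replicate block.

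All 3 S1P receptors had overlapping CPM in the groups, and none passed the threshold. S1pr1 encodes the receptor that T cells need to leave lymphoid organs. It was at 812, 956, 992 and 1028 CPM in control against 1035, 1073, 1059, 1011 and 1047 CPM in DKO. Control replicate 1 was the lowest library, and only DKO replicate 4 lay within the control range. The means were 947 ± 94.9 CPM (SD, n = 4) and 1045 ± 23.6 CPM (SD, n = 5), with a log2 fold change of 0.14 (95% interval -0.03 to 0.31, edgeR adjusted p 0.405). Without control replicate 1 it was 0.06 (95% interval -0.04 to 0.17).

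S1pr5 encodes an S1P receptor of NK cells and of terminally differentiated effector T cells. It was at 612, 669, 678 and 683 CPM in control against 722, 639, 673, 592 and 785 CPM in DKO. The DKO libraries spread to both sides of the control range, and the log2 fold change was 0.05 (95% interval -0.15 to 0.24, edgeR adjusted p 0.839). S1pr4, an S1P receptor found mainly on blood cells, was at 250.1, 278, 263 and 288 CPM in control against 317, 284, 312, 272 and 291 CPM in DKO. In 3 DKO libraries it was above all controls, and the log2 fold change was 0.13 (95% interval -0.04 to 0.30, adjusted p 0.449), or 0.08 without control replicate 1 (adjusted p 0.535). The upper bounds of these intervals are differences of 1.24-fold for S1pr1, 1.18-fold for S1pr5 and 1.23-fold for S1pr4.

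**Figure D3:**
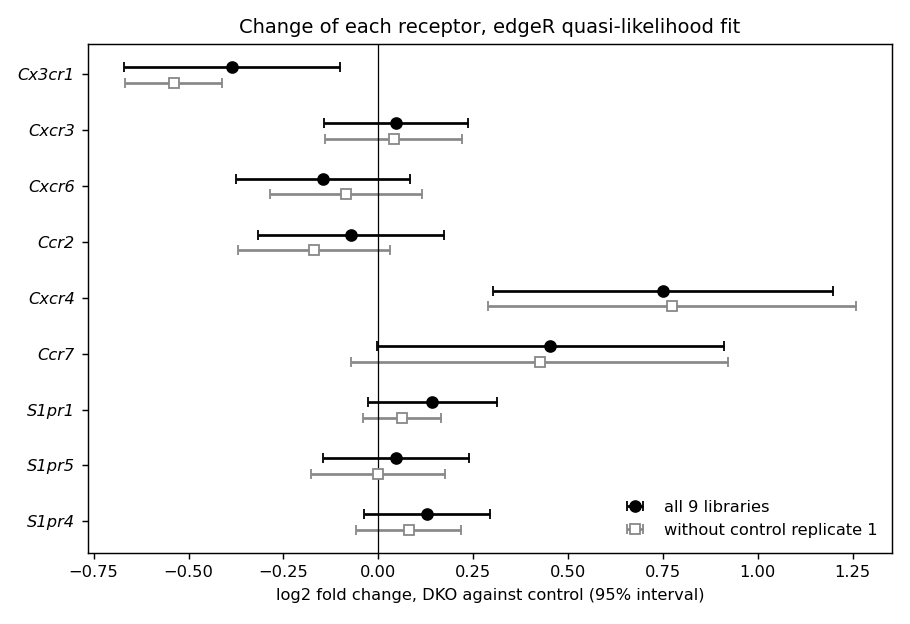
Log2 fold change of each receptor (horizontal axis, DKO against control) with its 95% interval, for the fit of all 9 libraries (filled) and without control replicate 1 (open squares). The intervals of Cxcr4 and Cx3cr1 exclude 0 in both fits before adjustment, and that of Cx3cr1 narrows from -0.67 to -0.10 with all libraries to -0.67 to -0.41 without control replicate 1.

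The receptors were compared with each other as CPM per kb of exon, since a longer transcript gives more counts. In control, Cxcr6 was highest at 769 CPM per kb, followed by S1pr1 (311), S1pr5 (264), Cxcr3 (208), Cx3cr1 (179.9), Ccr2 (129) and S1pr4 (113), with Ccr7 (5.97) and Cxcr4 (5.10) far below. Cxcr6 was above S1pr1 in all 4 control libraries with a ratio of means of 2.47, and S1pr4 was above Ccr7 by a ratio of 19. The ranges over control libraries overlapped for S1pr1 and S1pr5, for Cxcr3 and Cx3cr1, for Cx3cr1 and Ccr2, for Ccr2 and S1pr4, and for Ccr7 and Cxcr4, although within each of the 4 control libraries S1pr1 was above S1pr5, Cx3cr1 above Ccr2 and Ccr2 above S1pr4. Cxcr3 was above Cx3cr1 and Ccr7 above Cxcr4 in 3 of the 4.

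In DKO, with the same exon lengths, the means were Cxcr6 at 695 CPM per kb, S1pr1 at 343, S1pr5 at 273, Cxcr3 at 215 and Cx3cr1 at 138. S1pr4 (124) and Ccr2 (122) followed, then Cxcr4 (8.56) and Ccr7 (8.18). The ranges of Cxcr3 and Cx3cr1, which overlapped in control, were apart in DKO, where Cxcr3 was higher in all 5 libraries. S1pr4 with Ccr2 and Cxcr4 with Ccr7 overlapped in both groups. The place of Ccr2 depends on the length used: over its longest transcript (5728 bases) it was at 151.8 CPM per kb in control and at 144 in DKO, which is above Cx3cr1 (138) and S1pr4 (124) in DKO.

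**Figure D4:**
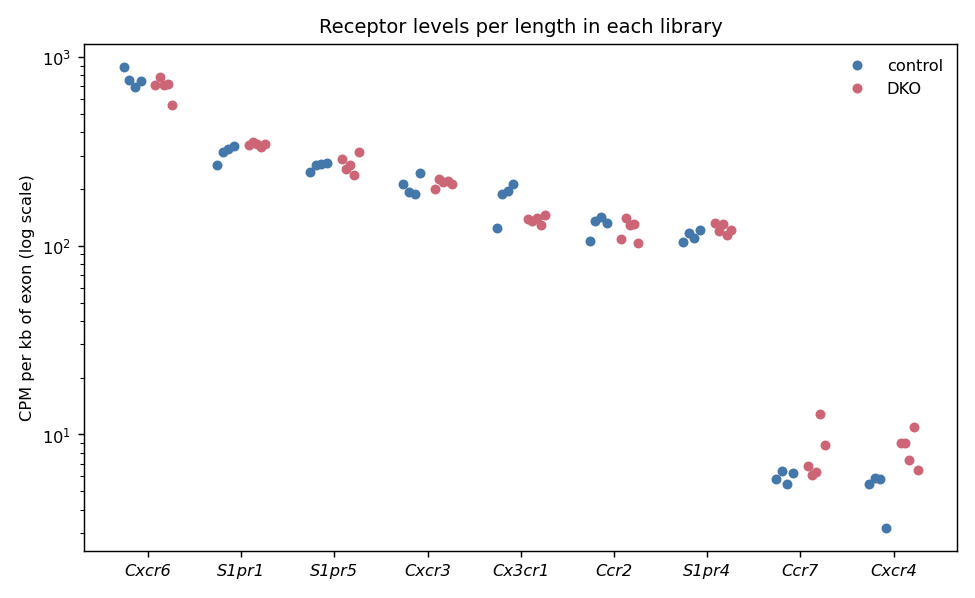
Level of each receptor per length (vertical axis, CPM per kb of exon, log scale) in each control and DKO library, with the receptors ordered by their control mean. The other 7 receptors lie between 103.9 and 884 CPM per kb in every library, above Ccr7 and Cxcr4 at 3.20 to 12.9.

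The shares of the S1P receptors in their summed level overlapped between the groups. Of the summed CPM per kb of S1pr1, S1pr2, S1pr4 and S1pr5, S1pr1 took 44.8 ± 1.31% (SD, n = 4) in control against 46.1 ± 2.08% (SD, n = 5) in DKO. S1pr5 took 38.1% and 36.5%, S1pr4 16.3% and 16.6%, and S1pr2, which restrains migration, 0.751% and 0.776%. S1pr5 was thus second to S1pr1 in both groups.

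Among the 6 chemokine receptors, Cxcr6 took 59.2 ± 4.87% of the summed level per kb in control and 58.4 ± 2.66% in DKO. Cxcr3 took 16.0% and 18.2%, Cx3cr1 13.9% and 11.7%, Ccr2 9.96% and 10.3%, and Ccr7 0.46% and 0.696%. The share of Cxcr4 was 0.395 ± 0.108% in control and 0.719 ± 0.121% in DKO, and it alone did not overlap. The log2 ratio of Cx3cr1 to Cxcr3 CPM was 0.614, 1.35, 1.44 and 1.19 in control and 0.85, 0.646, 0.745, 0.605 and 0.834 in DKO. The 3 controls other than replicate 1 were above all DKO libraries, and control replicate 1 lay among the DKO values. The ratio of Cx3cr1 to S1pr5, the other mark of terminal effector cells, showed the same arrangement, with a difference of means of -0.40, or -0.53 without control replicate 1. The ratios of Cx3cr1 to Ccr2 (difference -0.28) and to Cxcr6 (-0.21) overlapped between the groups, also without control replicate 1 (-0.36 and -0.45).

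In bulk RNA of sorted cells, fewer cells of a subset and less RNA per cell cannot be told apart. Myeloid cells and NK cells also express Cx3cr1, and the summed CPM of both their marker lists was lower in DKO. The myeloid list (14 genes, of which 10 were tested, with 2 lower and none higher at the threshold) summed to 162 to 199.95 CPM in control against 116 to 127 CPM in DKO. Of its tested genes 5 were above 0 and 5 below, with a median log2 fold change of 0.03. The NK cell list (5 genes, of which 4 were tested and 1 was lower at the threshold) summed to 237 to 251 CPM in control against 156 to 189 CPM in DKO. All 4 of its tested genes were below 0 (7672 of all 14918 genes were), with a median of -0.25. For both lists the p was 0.0159 (exact permutation test, two-sided, the smallest that relabelling 4 and 5 libraries allows) and the adjusted p over 7 lists was 0.0556.

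Most of the myeloid sum came from Ctss, Itgam and Cd68 (81.2, 58.9 and 29.2 CPM in control) and most of the NK cell sum from Klre1 and Klrb1c (166 and 72.9 CPM in control). In the myeloid list the genes that passed the threshold were the lysosomal genes Ctss, from 81.2 ± 8.22 to 51.3 ± 5.83 CPM (edgeR adjusted p 0.00734), and Cd68 (edgeR adjusted p 0.0138). In the NK cell list it was the lectin receptor Klre1, from 166 ± 16.8 to 109 ± 11.5 CPM (edgeR adjusted p 0.00937). Of the genes that define these cells most narrowly, Csf1r was at most 5.63 CPM, Adgre1 at most 2.06 CPM and Ncr1 at most 0.248 CPM. Clec9a and Siglech were at 0 in every control library, but neither was at 0 in every DKO library. Lyz2 was at 1.47 to 3.41 CPM in control against 2.81 to 13.6 CPM in DKO. Which cells the RNA of these marker genes came from was not tested. The part of other cells in the level of Cx3cr1, or of the low transcripts Cxcr4 and Ccr7, was not tested either.

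The defining genes of CD8+ T cells were present in every library. Cd8a was at 663 to 798 CPM in control against 675 to 757 CPM in DKO, while Cd4 was at most 0.663 CPM and Pax5 was at 0 in all 9 libraries. Of the 8 CD8 T cell genes only Cd8b1 passed the threshold (log2 fold change -0.40, edgeR adjusted p 0.0428). The log2 fold change was below 0 for 7 of the 8 (7672 of all 14918 genes), with a median of -0.19. At an unadjusted p under 0.05 stood 4 of them (16% of all genes), and 2 did not overlap between the groups (8.71% of all genes). The list summed to 6999 to 9563 CPM in control against 6435 to 7086 CPM in DKO (exact permutation p 0.0317, adjusted 0.0741). The B cell list, led by Ighm, summed to 221 ± 37.0 and 204 ± 8.75 CPM, the CD4 T cell list, led by Cd40lg, to 35.3 ± 3.68 and 41.8 ± 4.67 CPM, the erythroid and platelet list, led by Ppbp, to 26.9 ± 11.5 and 33.3 ± 17.4 CPM, and the stroma and endothelium list, led by Pecam1, to 25.0 ± 6.76 and 21.7 ± 2.59 CPM. Their adjusted p values in the exact permutation test were between 0.111 and 0.54.

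The pathway around the receptors was read from 7 lists with 124 genes in all, of which 95 were tested. In these lists 1 gene was higher and 2 were lower at the threshold, where 2.83% of all genes passed (1.32% higher and 1.51% lower). An unadjusted p under 0.05 was found for 27 (16% of all genes). The CPM of 13 did not overlap between the groups (8.71% of all genes). DESeq2 called 12 (6.96% of all genes) and limma-voom 17 (6.68%). The log2 fold change was above 0 for 64 of the 95 (7246 of all 14918 genes). These shares of all genes also stand beside the counts of each single list below. The median log2 fold change was 0.09, against -0.01 over all genes.

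**Figure D5:**
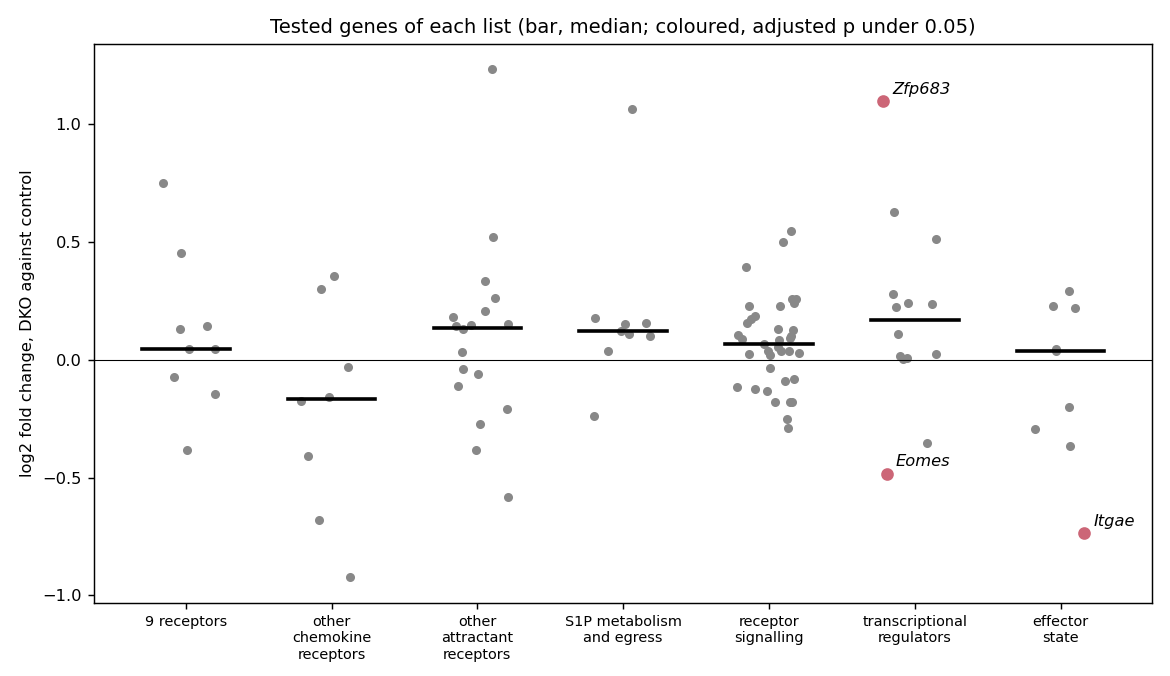
Log2 fold change (vertical axis, DKO against control) of each tested gene of the 9 receptors and of 6 of the lists, with the median of each list as a bar. Zfp683 (higher) and Eomes and Itgae (lower), in colour, are the genes that passed the threshold.

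Of 17 other chemokine receptors 8 were tested and none passed, with 3 at an unadjusted p under 0.05 (2 called by DESeq2 and 1 by limma-voom) and a median log2 fold change of -0.17. Cxcr6, Xcr1, Ccr3 and Ccr2 lie close together on chromosome 9, from 123806475 to 124113557 (mm10). Their log2 fold changes were -0.15, -0.41, -0.18 and -0.07, all below 0 and none past the threshold, while Ccr9, just before them, was at 0.30. Xcr1, the receptor of XCL1 and the gene of this cluster with the lowest p, was at 29.2 ± 4.63 CPM in control against 22.0 ± 2.09 CPM in DKO (edgeR adjusted p 0.112). Cx3cr1 and S1pr5 are on the same chromosome but outside this cluster.

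Of 24 other receptors for lipids and chemoattractants 18 were tested and none passed, with 5 at an unadjusted p under 0.05 (4 called by DESeq2 and 4 by limma-voom) and a median of 0.14. The 3 tested genes of this list whose CPM did not overlap are named here after their values were seen. P2ry12, an ADP receptor, was at 22.9 ± 1.55 and 17.6 ± 1.72 CPM (log2 fold change -0.38, edgeR adjusted p 0.0799). Gpr18 was at 107 ± 5.53 and 89.0 ± 5.03 CPM (adjusted p 0.0891). Cmklr1, the chemerin receptor, was at 2.61 ± 0.134 and 3.75 ± 0.425 CPM (adjusted p 0.104).

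The ligands of the 9 receptors were hardly present in the sorted cells. Of 11 ligand genes 2 were tested, 4 had no count in any library, and the highest was Cxcl10 at 0.503 ± 0.226 CPM in control against 0.626 ± 0.178 CPM in DKO. Neither tested gene passed in edgeR, DESeq2 or limma-voom, and neither had an unadjusted p under 0.05. Of 13 genes for S1P metabolism and egress 9 were tested and none passed, with 1 at an unadjusted p under 0.05 (0 called by DESeq2 and 1 by limma-voom) and a median of 0.12. In that list Cd69, whose protein draws S1PR1 off the surface, was at 44.5 ± 4.06 and 49.6 ± 2.84 CPM (log2 fold change 0.16, edgeR adjusted p 0.420).

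The signalling list held G protein subunits, arrestins, receptor kinases, RGS proteins and small GTPases that act below the receptors. Of its 38 genes 37 were tested and none passed, with 7 at an unadjusted p under 0.05 (1 called by DESeq2 and 4 by limma-voom), 26 of 37 above 0 and a median of 0.07. Rgs1, which dampens signals of CXCR4 and S1PR1, was at a log2 fold change of 0.12 (edgeR adjusted p 0.678).

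Transcription factors known to act on these receptors held the gene with the lowest p of the 7 lists. Of 14 tested, 1 was higher and 1 lower in DKO at the threshold (2.83% of all genes passed), and 7 had an unadjusted p under 0.05 (16%). DESeq2 called 3 (6.96% of all genes) and limma-voom 4 (6.68%). The median was 0.17 with 12 of 14 above 0 (7246 of all 14918 genes). Zfp683, which encodes Hobit, a factor of tissue-resident lymphocytes that represses egress genes, was at 9.45, 9.88, 11.9 and 8.27 CPM in control against 22.2, 17.4, 25.6, 16.3 and 24.1 CPM in DKO. Every DKO library was above every control library. It rose by a log2 fold change of 1.10 (standard error 0.16, edgeR adjusted p 0.00584) and passed in all 9 fits that left out 1 library.

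Eomes, a T-box factor of effector and memory cells, was at 59.6, 66.0, 78.0 and 84.4 CPM in control against 46.9, 59.0, 46.5, 52.9 and 52.0 CPM in DKO. It fell by 0.48 on the log2 scale (SE 0.12), and its edgeR adjusted p, 0.0497, lies at the threshold. It passed in 1 of the 9 fits that left out a library, the one without control replicate 1 (adjusted p 0.0076), and in the others the adjusted p reached 0.142. Its strand counts summed to 1.15 times its unstranded count, so some of its reads lie where another gene overlaps. Tbx21, which encodes T-bet, was at 956, 1145, 1101 and 1226 CPM in control against 1317, 1174, 1271, 1235 and 1469 CPM in DKO (log2 fold change 0.22, adjusted p 0.253). Klf2, the activator of S1pr1, was at 1643 to 1972 CPM in control against 1842 to 2016 CPM in DKO (0.11, adjusted p 0.494). Zeb2 was at 225 CPM in control replicate 1, the lowest library, and at 345, 422 and 474 CPM in the other controls, against 350.1 to 411 CPM in DKO. Its log2 fold change was 0.02 with all libraries and -0.17 without control replicate 1 (adjusted p 0.966 and 0.345).

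Of 9 genes of effector state all were tested, 1 was lower in DKO at the threshold, and 4 had an unadjusted p under 0.05 (16% of all genes did). DESeq2 called 2 and limma-voom 3. The median was 0.04, with 5 genes above 0 and 4 below. Itgae, the integrin CD103 of tissue-resident cells, was at 10.5, 10.2, 8.25 and 10.1 CPM in control against 5.42, 5.34, 7.17, 5.03 and 6.39 CPM in DKO. The groups did not overlap, and Itgae fell by 0.74 on the log2 scale (standard error 0.14, edgeR adjusted p 0.0219). Leaving out control replicate 2 or 4 or DKO replicate 1, 2 or 4 raised its adjusted p above the threshold, to at most 0.0693. Zfp683 and Itgae, both known from tissue-resident cells, thus differed in opposite directions. Klrg1, a mark of terminal effector cells that was named after its values were seen, was at 624 to 750.1 CPM in control against 491 to 611 CPM in DKO without overlap (log2 fold change -0.29, adjusted p 0.125).

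For the 3 receptors with the lowest p, the genes with the most similar pattern over the 9 libraries were found as the smallest root mean square difference of log2 CPM deviations from each gene's mean, among 8174 genes. Nearest to Cx3cr1 were Kdm5b (0.0727), Jak1 (0.074) and Ifnar1 (0.0933), against a spread of Cx3cr1 itself of 0.271 (SD of its log2 CPM). None of these 3 genes passed the threshold, and edgeR's adjusted p was 0.311, 0.179 and 0.344. Nearest to Cxcr4 were Cd40lg (0.172), Hist2h2be (0.207) and Alcam (0.242), against a spread of 0.492. Nearest to Ccr7 were Actb (0.185), Calm3 (0.199) and Cks2 (0.215), against a spread of 0.363. The 9 libraries share depth and preparation, and control replicate 1 enters each of these distances.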

How the data were processed

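Per the labels' protocols, a Qiagen RNeasy kit gave the polyA RNA, Takara's SMART-Seq v4 kit the cDNA, and Illumina's Nextera Flex kit the libraries. Trim Galore 0.6.0, STAR 2.7.8a and the build mm10 are named per the submitters' processing notes, and the annotation is not given in the sources. The authors deposited raw counts per gene, in a file for each library that has the form of STAR's gene counts. The unstranded column was used, since the strand columns were nearly equal (49.9 to 50.1% in the first). Lines without a gene were left out (unmapped 10.3 to 16.7%, multimapping 5.80 to 6.79%, no feature 4.01 to 5.20%, ambiguous 4.97 to 5.31% of a library). PCR copies are counted as reads, as there are no molecular identifiers. GENCODE M21, which holds 55230 of the identifiers, gave symbols, coordinates and exon lengths. Libraries of a group all differed by more than sampling noise.

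Groups were compared by the quasi-likelihood F-test of edgeR 4.0.16 (R 4.3.3; robust, TMM, filterByExpr at a count of at least 10 and a total of at least 15), group being the only term. SE is the size of the log2 fold change divided by the root of F. CPM uses effective library sizes, and log2 CPM a prior count of 2. Marker lists were compared by exact permutation tests, two-sided, with Benjamini-Hochberg adjustment over the lists. The alternatives used edgeR with size factors of DESeq2, the Wald test of DESeq2 1.42.0, voom of limma 3.58.1 with quality weights, 1 surrogate variable from sva 3.50.0, a block for the replicate number, summed strand columns, no low-count filter, a filter at 1 CPM in at least 4 libraries, and fits that each left out 1 library. A lowess correction (span 0.3) for the length trend, with and without control replicate 1, was added after seeing the data. The scripts were tested on simulated data.

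Named genes were the 9 receptors, list genes past the threshold, Klf2, Cd69, Rgs1, Tbx21 and Zeb2 in any case, the highest gene of each marker list, and, for the 3 receptors with the lowest p, the 3 most similar genes with a mean of at least 10 CPM. Other genes under the rule are not reported here. The receptors and lists were chosen with earlier results of these data known.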

Additional observations from a re-analysis of the deposited data

Results flagged for a closer look

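Of 52 groups of 4 or 5 libraries examined, 2 held a library far from the others by Dixon's criterion at the 95% level, which chance meets in about 1 of 20 groups. Cxcr4 was at 5.79 CPM in control replicate 4, against 9.91 to 10.7 CPM in the other 3 controls. The gap was 0.846 of the range of the group. Without this library the log2 fold change of Cxcr4 was 0.58, and it was 0.75 with it. Itgae was at 8.25 CPM in control replicate 3, against 10.1 to 10.5 CPM in the other 3 controls, a gap of 0.834 of the range. The DKO libraries were all below that value, at 5.03 to 7.17 CPM.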

How the results depend on the processing

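The count of all genes past the threshold (422) was 1038 with DESeq2, 996 with limma-voom, 1148 with 1 surrogate variable, 67 with the replicate block and 822 with the length trend removed without control replicate 1. Leaving out 1 library gave 179 to 749, and control replicates 1 (749) and 4 (187) and DKO replicates 1 (179), 2 (280), 3 (180), 4 (221) and 5 (228) each moved it by over 1.5 times. Of the 9 receptors (0 past the threshold) 1 passed with DESeq2, 2 with limma-voom, 2 with 1 surrogate variable, and 0 to 1 when a library was left out (1 without control replicate 1, with or without the length trend). Of the list genes (3) 12 passed with DESeq2, 17 with limma-voom, 11 with 1 surrogate variable, 1 with the replicate block and 10 with the length trend removed without control replicate 1. Leaving out a library gave 1 to 11: 11 without control replicate 1, and 1 without control replicate 2 or 4 or DKO replicate 1, 2 or 4. The cause of these shifts was not tested.

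Of the values of single receptors under the 19 alternatives, 160 kept their direction and side of the threshold, 7 moved past it and 4 changed sign. The sign changes were all of S1pr5, at -0.011 with the replicate block, -0.012 to 0.093 when a library was left out and -0.00021 with the length trend removed without control replicate 1. Among other named genes Zeb2 ranged from -0.17 to 0.17 when a library was left out, and was at -0.11 with limma-voom, -0.076 with 1 surrogate variable, -0.014 with the length trend removed and -0.10 also without control replicate 1. Deviations of same-numbered libraries correlated at -0.05, -0.01, 0.01 and -0.12, against -0.09 to 0.15 for control and DKO libraries of unlike number. The labels do not say whether equal numbers mark a shared origin, and this was not tested. With the replicate block, Cx3cr1 had an adjusted p of 0.401 and Cxcr4 of 0.207.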
